A study of Drosophila melanogaster with 6 samples.

Results

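GABAergic neurons of the adult fly brain are described here across 6 single-cell libraries, as the 2536 cells that carried the transcript of the GABA-synthesising enzyme among 25189 kept cells. A cell belonged to them when it held at least 200 genes, at most 10% of its UMIs (unique molecular identifiers, which count captured transcripts) in mitochondrial transcripts, at least 2 UMIs of *Gad1*, at least 1 UMI of the neuronal synaptobrevin *nSyb*, at most 1 UMI of *VAChT* and no UMI of *VGlut*. The cells were thus chosen by these values, so the levels of *Gad1*, *nSyb*, *VAChT* and *VGlut* and the mitochondrial share are given as a description. The same limits with *VGlut* or *VAChT* in place of *Gad1*, and no UMI of *Gad1*, gave 3423 glutamatergic and 7927 cholinergic neurons of the same libraries. The GABAergic neurons were compared to these.

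GABA is the main fast inhibitory transmitter of the insect brain. Glutamic acid decarboxylase, encoded by *Gad1* in neurons, makes it from glutamate, the vesicular GABA transporter VGAT loads it into synaptic vesicles, and GABA transaminase (*Gabat*) and succinic semialdehyde dehydrogenase (*Ssadh*) break it down. Released GABA opens chloride channels built around the subunit Rdl and activates G protein-coupled GABA-B receptors, and GABAergic neurons of the fly brain belong to many lineages and include interneurons of the optic and antennal lobes and of the central brain.

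The libraries came from brains of flies at 10 days of age. In 3 of them the flies carried *Appl*[d] on a w[*] background, a deletion in the gene of the single fly relative of the amyloid precursor protein (*Appl*-), and in the other 3 the flies were w1118 (control). Each library pooled the brains of 20 male and 20 female flies, dissociated with trypsin, and nothing in the labels says more of how replicates were kept apart, so p-values measure the spread between these 6 samples. The mutant allele and the control stock differ in background as well as in *Appl*, and the deletion and the background cannot be told apart.

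Depth and cell loss differed between libraries more than between genotypes. Library totals ran from 11282730 to 26561802 UMIs in *Appl*- and from 16558530 to 56384733 in control, and between 31.8% and 63.9% of the barcodes of the *Appl*- libraries and between 38.7% and 84.7% of those of the control libraries exceeded the mitochondrial limit. Control replicate 1 stood apart, with the most barcodes, the largest mitochondrial loss and the most RNA of fat body and blood cells in its neurons. The 8 fat body markers summed to between 86.8 and 144 CPM (the UMIs of a gene relative to all gene UMIs of the same sum, on the usual scale of that name) in GABAergic cells of *Appl*- and to 4115, 154 and 252 CPM in those of control replicates 1, 2 and 3, and the 6 hemocyte markers, of which 1 was at 0 in every library, to between 0.877 and 9.26 CPM in *Appl*- and between 13.6 and 171 CPM in control.

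GABAergic cells took up a similar part of the kept cells in either genotype. The *Appl*- libraries held 355, 671 and 305 GABAergic cells and the control libraries 514, 294 and 397. As a share of kept cells these were 9.72%, 10.4% and 9.67% in *Appl*- against 11.6%, 8.69% and 9.69% in control, each known to within about 1 percentage point by counting alone (95% Wilson interval of the first, 8.80% to 10.7%). The groups overlapped, and the means of 9.93% ± 0.40 and 9.98% ± 1.46 (SD, n = 3 libraries each) differed by -0.06 percentage points (*Appl*- minus control; exact permutation test, two-sided, p = 0.9; 3 against 3 libraries cannot give a p below 0.1). Without control replicate 1 the difference was 0.73 percentage points (exact permutation p = 0.2). Among cells typed by any of the 3 transmitters the share was 19.4%, 17.1% and 16.6% in *Appl*- and 24.1%, 15.6% and 17.4% in control, a difference of -1.30 points of overlapping groups (exact permutation p = 0.8), and of 1.22 points without control replicate 1 (exact permutation p = 0.6).

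The cells were of similar depth in both genotypes. The median GABAergic cell held 3393, 2908 and 2930 UMIs in the *Appl*- libraries and 3135, 3382.5 and 3016 in the control libraries, with overlapping groups (exact permutation test, two-sided, p = 0.6), and 1355, 1194 and 1194 genes against 1250, 1288.5 and 1246. Their summed counts, which are what the tests below use, ran from 1140720 to 2484599 UMIs per library. No barcode was that of a GABAergic cell in more than 1 library. Of the 66920 different barcodes of all kinds, 439 occurred in more than 1 library. Whether barcodes of GABAergic cells recur among other cells was not counted. A lower summed level of a transcript can come from fewer cells of a type or from less RNA in each cell, and the sums do not tell these apart.

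Other markers were then set beside the label, with sums that omit the gate genes. *VGAT*, which marks GABA release, was at 311 ± 32.7 CPM in GABAergic sums (261 to 357 over the 6 libraries), against 69.9 ± 11.5 CPM in glutamatergic (57.9 to 81.8) and 70.2 ± 6.74 CPM in cholinergic sums (60.8 to 78.8; SD, n = 6 libraries each). With every cell thinned to 1000 UMIs, so that depth was equal, a *VGAT* UMI was found in a mean of 24.6% of GABAergic cells per library, 6.72% of glutamatergic cells and 6.78% of cholinergic cells. The summed neuronal markers (*elav*, *brp*, *Syt1*, *fne* and *para*) lay between 7932 and 9771 CPM in *Appl*- and between 8168 and 10531 in control, the 9 glial markers between 133 and 246 CPM against 187 and 411, and the cholinergic markers *ChAT* and *ChT* between 48.2 and 75.5 CPM against 54.3 and 124. The choline acetyltransferase gene *ChAT* was at 55.0 CPM in GABAergic sums and 62.3 CPM in glutamatergic sums, against 469 CPM in cholinergic ones.

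*CG14989* stood at 21424 ± 2130 CPM in GABAergic sums, against 125 ± 83.8 in glutamatergic and 97.9 ± 60.7 in cholinergic sums. A *CG14989* UMI was seen in 99.0% of thinned GABAergic cells, against 11.4% of glutamatergic and 9.81% of cholinergic cells. In the Ensembl annotation *CG14989* lies on the strand opposite to *Gad1* and overlaps it by 1164 bases. Whether the counting used the strand is not given in the sources used here, so reads of *Gad1* and *CG14989* cannot be separated, and the gene is left as a description. *ChAT* is also left as a description, since it shares its locus and 13416 bases of the same strand with the gate gene *VAChT*. *CG46448* lies on the same strand as *VGlut*, without overlap and with a gap of 8189 bases. It stood at 54.8 CPM in GABAergic sums, against 2991 in glutamatergic and 44.0 in cholinergic sums, and is a description too.

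**Figure D1:**
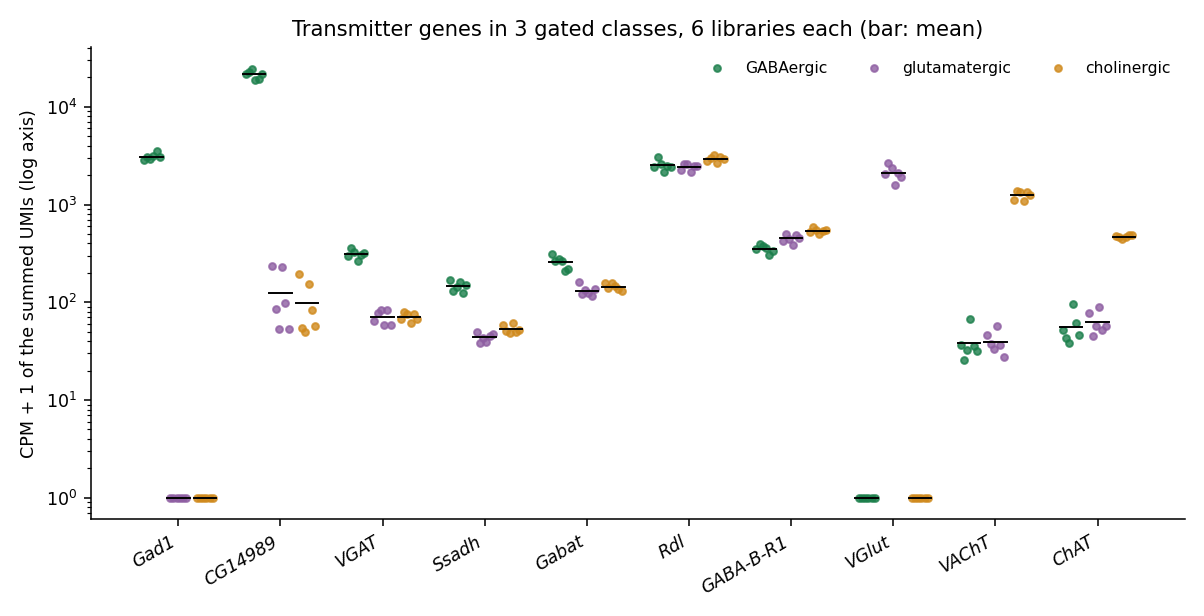
Level of transmitter genes in GABAergic (green), glutamatergic (purple) and cholinergic (orange) sums, as CPM + 1 on a log axis; each point is 1 library and the bar is the mean of 6. *VGAT*, *Ssadh* and *Gabat* points of GABAergic sums lie above all points of the other classes, the *Rdl* points overlap, and *Gad1*, *VGlut* and *VAChT* are the genes that chose the cells.

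Cells close to the *Gad1* limit grade into the gated ones. Among kept *nSyb*-positive cells that met the *VGlut* and *VAChT* limits, those with 0, 1, 2 and 3 UMIs of *Gad1* numbered 5397, 525, 251 and 220. Their *VGAT* averaged 63.3, 131, 184 and 233 CPM over the libraries, and a *VGAT* UMI was found in 12.3%, 22.3%, 31.8% and 37.1% of them. *ChAT* went the other way, with 290, 225, 109 and 73.8 CPM. Cells with 2 UMIs thus had a *VGAT* level between those of the excluded cells and of the deeper members. *Gad1* was also found in kept cells chosen by *VGlut*, *VAChT* or glial genes with no limit on *Gad1*. These sets differ from the glutamatergic and cholinergic classes, which exclude any *Gad1* UMI. At least 2 *Gad1* UMIs were present in 4.12% of 4539 cells with 2 or more *VGlut* UMIs, in 4.91% of 10416 cells with 2 or more *VAChT* UMIs and in 1 of 65 cells gated as glia (1.54%; 95% Wilson interval 0.272% to 8.21%) whose median depths per library ran from 1890.5 to 4140 UMIs. Of the GABAergic cells, 55, 62 and 36 in the *Appl*- libraries and 126, 42 and 45 in the control libraries held the 1 permitted *VAChT* UMI.

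The transcripts for packaging and breaking down GABA were higher in GABAergic neurons, and none of those for its reception was higher by 2-fold. Across 6630 genes tested in 1 fit with a term for each library (edgeR quasi-likelihood test, Benjamini-Hochberg adjusted p under 0.05 and at least 2-fold), 55 genes were higher (0.83%) and 58 lower (0.875%) in GABAergic than in glutamatergic neurons, and 91 were higher (1.37%) and 122 lower (1.84%) than in cholinergic neurons. *VGAT* was higher by 2.20 ± 0.06 on the log2 scale (SE) than in glutamatergic neurons (adjusted p = 2.78e-15) and by 2.18 ± 0.06 than in cholinergic neurons (adjusted p = 1.16e-16). *Ssadh*, which oxidises the product of GABA transaminase, had 146 ± 17.8 CPM, against 42.8 ± 4.32 in glutamatergic and 52.4 ± 5.04 in cholinergic neurons, and was higher by 1.80 and 1.50 on the log2 scale (adjusted p = 4.63e-13 and 2.10e-13). *Gabat* had 256 ± 38.4 CPM, against 131 ± 15.8 and 144 ± 11.6. It was higher by 1.01 than in glutamatergic neurons, at the 2-fold limit, and by 0.87 than in cholinergic neurons, below that limit with an adjusted p of 3.93e-10; without *Appl*- replicate 2 (0.97) or *Appl*- replicate 3 (just under 1.00) the first was below the limit too. All 6 libraries had more *VGAT*, *Ssadh* and *Gabat* in GABAergic than in either other class.

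The membrane GABA transporter *Gat*, known mainly from glia, was low in each class, with 11.3 CPM in GABAergic, 12.8 in glutamatergic and 11.1 in cholinergic neurons, and so was *b*, an aspartate decarboxylase related to *Gad1*, with 5.59, 5.58 and 7.86 CPM. Neither passed the test. Of the 7 receptor genes, *Rdl*, the main GABA-gated chloride channel subunit and a target of insecticides, was at 2523 ± 298 CPM, against 2424 ± 192 in glutamatergic and 2945 ± 196 in cholinergic neurons. Its difference was 0.09 from glutamatergic neurons (adjusted p = 0.167) and -0.19 from cholinergic neurons (adjusted p = 0.000704), small beside the 2-fold limit. *GABA-B-R1*, a subunit of the metabotropic receptor, had 353 ± 32.4 CPM, against 450 ± 42.1 and 540 ± 28.4, a difference of -0.31 and -0.58 (adjusted p = 0.000272 and 1.75e-08). It was lower in GABAergic neurons in all 6 libraries on both counts without reaching 2-fold. *Grd*, a Cys-loop subunit that can assemble with Rdl, had 7.31 CPM, against 21.0 in glutamatergic neurons, where the difference was called (-1.49, adjusted p = 4.60e-05), and 14.0 in cholinergic neurons (-0.88, adjusted p = 0.00216). *Lcch3*, another Cys-loop subunit, had 109 CPM, against 114 and 87.9 (-0.03, adjusted p = 0.914, and 0.34, adjusted p = 0.000271, higher than in cholinergic neurons in all 6 libraries). *GABA-B-R2*, *GABA-B-R3* and *CG8916* had adjusted p between 0.0911 and 0.725 in these contrasts.

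Transcription factors that set neuronal identity differed in both directions. Of 74 tested, 13 were higher and 13 lower than in glutamatergic neurons, and 21 were higher and 19 lower than in cholinergic neurons (of all genes, 0.83%, 0.875%, 1.37% and 1.84% by the same rule), with medians of 0.03 and -0.04 on the log2 scale, beside -0.01 and 0.00 for all genes tested. *Poxn*, a paired-box factor, had between 10.8 and 66.8 CPM in GABAergic sums, against at most 1.23 CPM in glutamatergic and 0.638 in cholinergic sums (log2 6.60 ± 0.43 and 6.78 ± 0.34, adjusted p = 9.76e-10 and 6.45e-12). The Hox gene *pb* had 47.9 CPM, against 2.94 and 4.49 (4.28 and 3.45). *tey* had 54.1 CPM, against 2.42 in glutamatergic neurons and 27.7 in cholinergic neurons (4.57 against the first). The paired Iroquois homeobox genes *ara* and *caup* had 46.0 and 61.8 CPM, against 11.3 and 18.3 in glutamatergic and 5.85 and 10.6 in cholinergic neurons.

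Further factors were called on either side. *vg* (94.9 CPM, against 25.9 in glutamatergic and 4.98 in cholinergic neurons), *Dr* (18.9, 10.1 and 0.913) and the nuclear receptor *svp* (77.1, 111 and 10.3) were higher than in cholinergic neurons by 4.31, 4.19 and 2.91 log2 units. On the low side, the large Maf factor *tj* had 1.10 CPM in GABAergic neurons, against 60.9 in glutamatergic and 8.43 in cholinergic neurons (log2 -5.80 ± 0.26 against the first, adjusted p = 1.93e-12). *kn*, the fly Collier protein, had 7.09 CPM, against 218 and 51.2 (-4.59 against the first), and the homeobox genes *otp* and *Rx* had 1.01 and 0.768 CPM, against 22.3 and 15.7 in glutamatergic neurons. *acj6*, a POU factor of cholinergic olfactory neurons, had 30.5 CPM, against 27.6 in glutamatergic and 295 in cholinergic neurons (-3.32 against the second), and the LIM factor *ap* had 9.07, 32.9 and 90.7 CPM (-3.27). *slp2* fell short of the threshold against glutamatergic neurons without *Appl*- replicate 2 (adjusted p = 0.051, against 0.0058 with all 6 libraries).

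**Figure D2:**
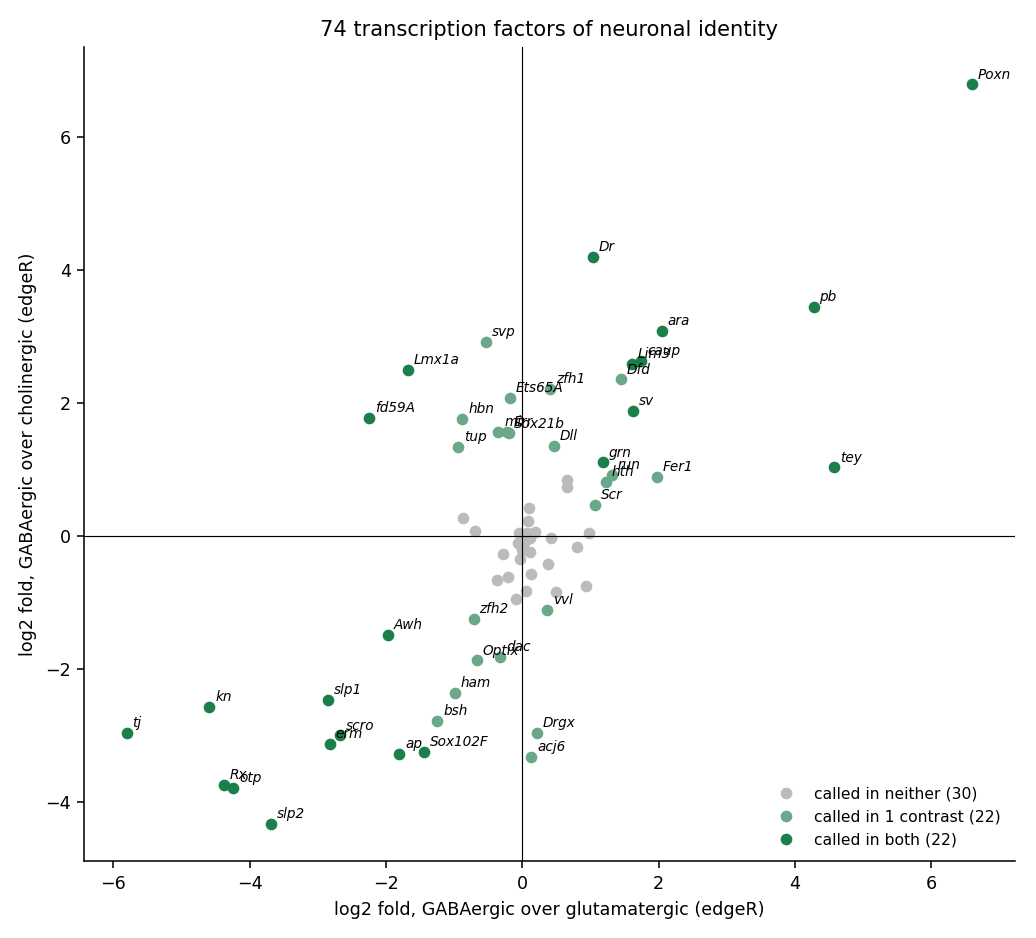
Log2 fold of 74 identity factors in GABAergic over glutamatergic neurons (horizontal) and over cholinergic neurons (vertical), from the edgeR fit; each point is a gene, dark green where called in both contrasts, light green where called in 1 and grey where called in neither. *Poxn* lies alone at 6.60 and 6.78, *tj* lies farthest left at -5.80 and *slp2* lowest at -4.33; both axes use the same GABAergic sums.

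Outside the factors, *Nos*, the nitric oxide synthase gene, had 366 CPM in GABAergic neurons (269 to 495), against 39.4 in glutamatergic (25.7 to 47.4) and 61.4 in cholinergic neurons (47.4 to 75.4), a log2 difference of 3.25 ± 0.14 from the first (adjusted p = 1.71e-12). *CG14687* had 134 CPM, against 6.04 and 5.71, and *mab-21* 123 CPM, against 16.2 and 18.9. *Nep1*, a neprilysin-type endopeptidase, had 60.8 CPM, against 11.5 in glutamatergic and 97.2 in cholinergic neurons (2.61 against the first). The lower genes included some of other transmitter systems. Of 6 tested markers of monoaminergic neurons, 4 were called lower than in glutamatergic neurons (0.875% of all genes were), and 2 had a difference above 0. *Vmat*, the vesicular monoamine transporter, had 10.6 CPM, against 399 in glutamatergic neurons (3.85 to 863 over libraries). A *Vmat* UMI was found in a mean of 2.70% of GABAergic and 2.76% of glutamatergic cells per library, so the share of cells with it was similar. *Tdc2*, the neuronal tyrosine decarboxylase that serves tyramine and octopamine synthesis, had 0.284 CPM, against 27.0. The choline transporter *ChT* had 17.7 CPM, against 22.5 in glutamatergic and 199 in cholinergic neurons (log2 -3.48 against the second). The vesicular transporter *prt*, known from mushroom body neurons, had 5.15, 5.40 and 86.5 CPM (-4.02). *CG34355* had 40.5 CPM, against 700 in glutamatergic neurons (-4.01), and *spab* 29.4 CPM, against 313 in cholinergic neurons (-3.42).

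Of 23 neuropeptide genes tested, 1 was higher and 4 lower than in glutamatergic neurons, and 4 were higher and 4 lower than in cholinergic neurons (0.83%, 0.875%, 1.37% and 1.84% of all genes). Some were even over libraries and others were not. *Nplp1* had 400 CPM in GABAergic neurons (333 to 470), against 542 in glutamatergic and 38.9 in cholinergic neurons (log2 3.39 ± 0.08 against the second, adjusted p = 3.79e-17), and the proctolin gene *Proc* had 134 CPM (99.0 to 166), against 99.2 and 26.1 (2.36). The allatostatin A gene *AstA* averaged 968 CPM, yet from 1.67 to 2492 over the libraries, and was higher than in glutamatergic neurons in 4 of 6 libraries (adjusted p = 0.00704). *Ms* (myosuppressin) had 8.87 CPM, against 506 in glutamatergic neurons (0.641 to 2541). It lost its call without control replicate 1 (adjusted p = 0.0784) or *Appl*- replicate 2 (0.0558), *CCHa1* without any of 4 libraries (control replicate 2 or any *Appl*- replicate), *Orcokinin* without control replicate 3 or *Appl*- replicate 1, *Mip* without control replicate 1, control replicate 3 or *Appl*- replicate 1, and *NPF* without control replicate 1 or *Appl*- replicate 3. In these fits the adjusted p of *Ms*, *CCHa1*, *Orcokinin*, *Mip* and *NPF* lay between 0.0508 and 0.247.

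Receptors and channels were called less often than the identity factors. *ort*, a histamine-gated chloride channel of visual interneurons, had 10.8 CPM in GABAergic neurons, against 73.4 in glutamatergic and 22.5 in cholinergic neurons (log2 -2.75 and -1.07; the second was under 2-fold without control replicate 3, -0.97, or *Appl*- replicate 2, -0.96). Among monoamine receptors, the dopamine receptor gene *Dop1R2*, prominent in mushroom body neurons, had 72.0 CPM, against 86.1 and 187 (-1.35 against cholinergic neurons). Of 31 neuropeptide receptor genes, 1 was lower than in glutamatergic neurons (*SIFaR*, 17.7 CPM against 67.8, log2 -1.91), beside 0.875% of all genes. Against cholinergic neurons 5 were lower, beside 1.84% of all genes. The last were *Lgr3*, *hec*, *CNMaR*, *sNPF-R* and *Lgr1*, and the 3 nearest the limit, *CNMaR* (-1.03), *sNPF-R* (-1.02) and *Lgr1* (at the limit itself), crossed below 2-fold when any of 2 or 3 single libraries was left out: control replicates 1, 2 and 3 for *CNMaR*, control replicates 2 and 3 and *Appl*- replicate 3 for *sNPF-R*, and control replicate 2 and *Appl*- replicate 1 for *Lgr1*. None of 11 acetylcholine receptor genes reached 2-fold (of all genes, 0.83% were called higher and 0.875% lower than in glutamatergic neurons, and 1.37% and 1.84% than in cholinergic neurons). Without a fold limit 7 had an adjusted p under 0.05 and were higher than in glutamatergic neurons, beside 6.85% of all genes. Among them *mAChR-A* was at 0.51 and *nAChRalpha5* at 0.48 on the log2 scale.

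Many nuclear genes of the mitochondrial respiratory chain and some ribosomal protein genes were higher in GABAergic neurons by small amounts. Of 67 such respiratory chain genes none differed by 2-fold from glutamatergic neurons, while 40 had an adjusted p under 0.05 and were higher and 0 were lower without a fold limit (6.85% and 5.91% of all genes by that rule), with a list median of 0.19 on the log2 scale. Against cholinergic neurons 56 of the 67 were higher and 0 lower (14.9% and 14.7% of all genes), with a median of 0.28. Of 84 ribosomal protein genes 28 were higher and 1 lower than in glutamatergic neurons, and 46 were higher and 4 lower than in cholinergic neurons, with medians of 0.09 and 0.12. In the genotype comparison of GABAergic neurons, edgeR called 0 of the 67 and 0 of the 84, beside 2.49% of all genes. In that comparison 2 and 3 of them had an unadjusted p under 0.05, beside 12.1% of all genes. DESeq2 called 0 of the 67 and 1 of the 84, which was lower in *Appl*-.

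GABAergic neurons were a mixture. Leiden clustering of the 2536 cells gave 24 sub-clusters of 20 to 349 cells (18 at resolution 0.5 and 34 at resolution 2), each given here by number and leading genes as a description. Sub-cluster 0, with 349 cells, had *run*, *Sox21b* and *ct* as leading factors and the short neuropeptide F precursor *sNPF* at 2533 CPM, against 461 CPM in the other GABAergic cells. The GABA receptor subunit gene *CG8916* was at 130 CPM there, against 9.24 CPM elsewhere. Sub-cluster 1 (274 cells) led with *grn*, *vvl* and *mirr*, sub-cluster 2 (225) with *pb*, *Fer3* and *tey*, sub-cluster 3 (215) with *disco-r*, *disco* and *vg*, sub-cluster 4 (200) with *ey*, *Lim3* and *tup*, and sub-cluster 5 (177) with *hbn*, *Dll* and *Ets65A*. The octopamine receptor gene *Octbeta1R* was at 2476 CPM in sub-cluster 5, against 186 CPM in the other GABAergic cells. Sub-clusters 6 (170 cells) and 9 (121) shared *bi*, and in sub-cluster 9 *ort* was at 185 CPM, against 4.06 CPM elsewhere. Sub-clusters 7 (148 cells; *Kr*, *zfh2* and *Scr*), 8 (122; *Vsx1* and *br*) and 10 (77; *Fer1*, *acj6* and *fd59A*) followed.

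Among the small sub-clusters several carried a peptide gene. Sub-cluster 13, with 41 cells, had *Poxn* in 95.1% of its cells, against 2.53% of the others, together with *ara*, *caup*, *Nep1*, *CG14687* and the diuretic hormone gene *Dh31* (5989 CPM, against 262). Sub-cluster 14 (39 cells) held *FMRFa* and *Dh44*, and sub-cluster 11 (54 cells) *Proc* at 1199 CPM. Sub-cluster 23 had 20 cells, all with *AstA*, which stood at 63789 CPM there, against 15.4 CPM in the other GABAergic cells, and *dimm*, a factor of peptide-secreting cells, was found in 45% of its cells and in none of the others. Its cells numbered 4, 3 and 0 in the *Appl*- libraries and 8, 0 and 5 in the control libraries. The 2 libraries with no such cell, *Appl*- replicate 3 and control replicate 2, were those with *AstA* at 1.75 and 1.67 CPM. Every library had cells in each of the other 23 sub-clusters. *VGAT* ranged from 107 to 448 CPM over sub-clusters, the lowest in sub-cluster 17 (35 cells). *ChAT* ranged from 0 to 201 CPM, the highest in sub-cluster 6, with 107 CPM in sub-cluster 17.

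**Figure D3:**
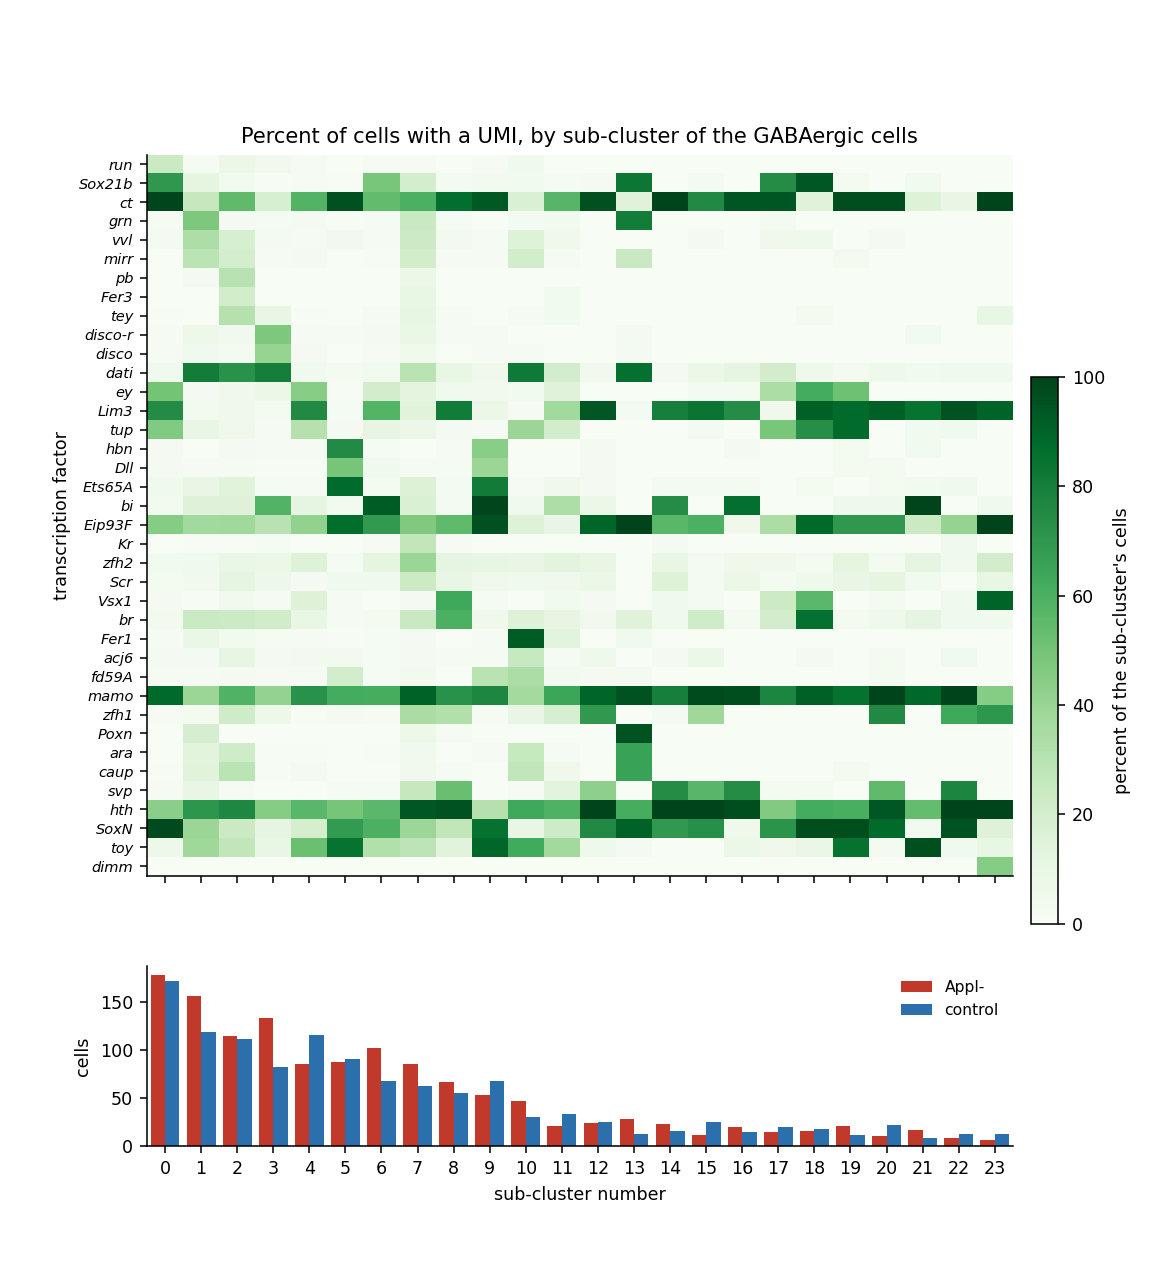
Above, the percent of cells of each GABAergic sub-cluster (0 to 23, horizontal) with a UMI of transcription factors that lead sub-clusters (vertical), from 0 to 100% by depth of green; below, the number of *Appl*- (red, left) and control (blue, right) cells per sub-cluster. *Poxn* marks sub-cluster 13 and *dimm* sub-cluster 23, while *mamo*, *hth* and *Eip93F* are spread over most sub-clusters; sub-clusters are drawn from the same transcripts and are a description.

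In GABAergic neurons of *Appl*- brains, 78 genes were higher and 77 lower than in control, 2.49% of 6223 tested (edgeR quasi-likelihood test on sums of 3 against 3 libraries, adjusted p under 0.05 and a log2 difference of at least 0.32), and 12.1% had an unadjusted p under 0.05. The same test called 2.49% of genes in GABAergic, 2.46% of 6383 in glutamatergic and 4.54% of 7339 in cholinergic neurons (the sums of cholinergic cells were the largest). With the replicate number as a block the GABAergic counts were 177 higher and 164 lower, and all 155 genes called without it were called with it. Without *Appl*- replicate 2, the deepest GABAergic library, the counts were 49 higher and 37 lower, without *Appl*- replicate 3 they were 56 and 51, and among cells with at most 5% mitochondrial UMIs they were 37 and 31. The 3 *Appl*- libraries did not overlap the 3 control libraries in 78 of the 78 higher and 75 of the 77 lower genes, and in 17.6% of all genes tested. The annotation places 73 of the 155 genes over another gene, so their reads cannot be assigned with certainty where counting ignored the strand.

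*Appl* itself, the deleted gene, had 175, 220 and 180 CPM in *Appl*- libraries, against 1672, 1994 and 1781 CPM in control libraries (log2 -3.21 ± 0.16, adjusted p = 1.03e-07). A UMI was seen in 43.9%, 47.8% and 43.0% of *Appl*- cells and in 94.7%, 94.2% and 94.7% of control cells. The allele removes the central part of the gene, and by PCR the paper found its first and last exons still present in the mutant flies. Where the counted 3′ tags lie relative to the deletion is not given in the sources used here and was not tested. *Appl* differed by -2.92 in glutamatergic and by -3.47 in cholinergic neurons of the same libraries.

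None of the 4 genes of GABA handling other than *Gad1* or the 7 GABA receptor genes tested was called between genotypes by edgeR or DESeq2, beside 2.49% of all genes. In each group 1 gene (*Gabat* and *CG8916*) had an unadjusted p under 0.05, beside 12.1% of all genes. *Gad1*, a gate gene, had 2837, 3033 and 2938 CPM in *Appl*- and 3102, 3540 and 3097 CPM in control. *VGAT* had 295, 357 and 329 CPM in *Appl*-, against 261, 305 and 321 CPM in control, with overlapping libraries (log2 0.18 ± 0.14, adjusted p = 0.699). *Gabat* had 311, 266 and 274 CPM in *Appl*-, against 263, 206 and 219 CPM in control. Its *Appl*- libraries all lay above the control ones, by 0.34 ± 0.14 on the log2 scale, and the adjusted p was 0.356. *Ssadh* differed by 0.04 ± 0.15 and *Gat* by -0.68 ± 0.36, and *b* was too low to be tested. Among the receptors, *Rdl* had 2407, 3058 and 2597 CPM in *Appl*-, against 2175, 2506 and 2393 CPM in control (0.22 ± 0.14, adjusted p = 0.61), with overlapping groups. *CG8916* had 10.4, 18.1 and 16.7 CPM in *Appl*-, all below the 21.7, 24.2 and 37.4 CPM in control (-0.81 ± 0.28, adjusted p = 0.208). *Lcch3*, *Grd*, *GABA-B-R1*, *GABA-B-R2* and *GABA-B-R3* differed by between -0.12 and 0.22 with adjusted p of 0.646 or more. The median log2 difference was 0.11 over the 4 handling genes and 0.03 over the receptors, beside -0.01 for all genes.

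**Figure D4:**
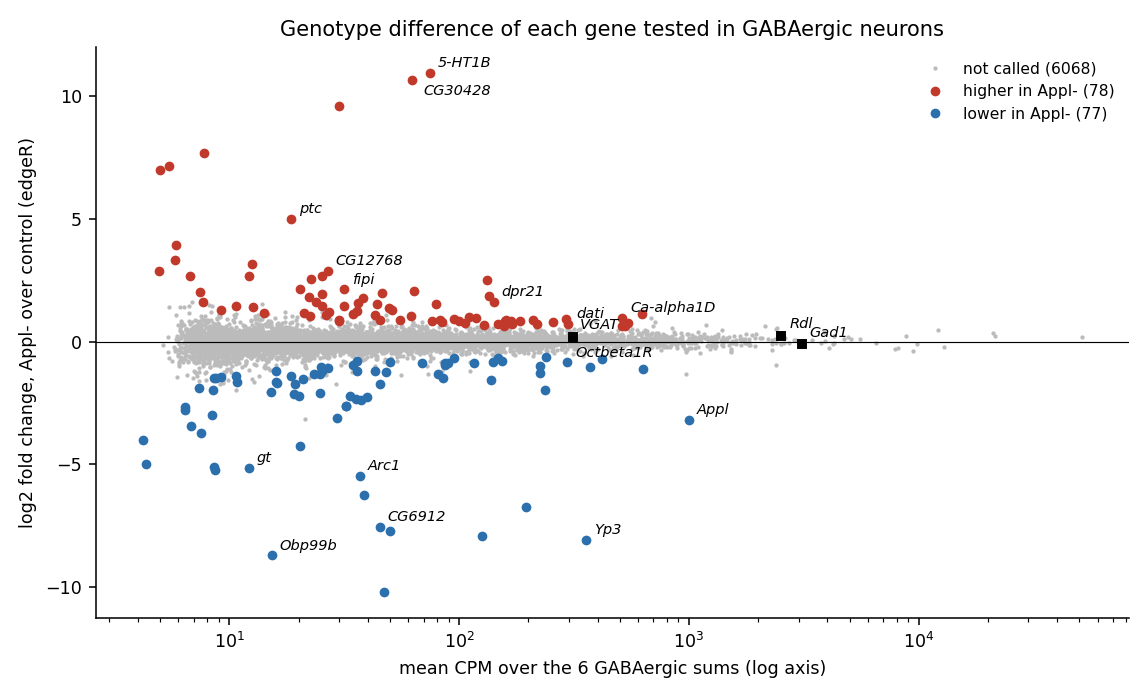
Log2 fold change of *Appl*- over control in GABAergic neurons (edgeR, vertical) against mean CPM over the 6 sums (log axis), 1 point a gene; red, 78 higher; blue, 77 lower; grey, not called; black squares, *Gad1*, *VGAT* and *Rdl*. The black squares lie near 0, *5-HT1B* and *CG30428* at the top, and *Appl* at -3.21.

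The largest rises were of genes with no UMI in any control GABAergic cell. *5-HT1B*, a serotonin receptor, had 167, 129 and 153 CPM in *Appl*- libraries and 0 in all 3 control libraries, and a UMI of it was found in 36.3%, 28.2% and 32.1% of *Appl*- cells. Set against the limit of 3 UMIs that a count of 0 allows over the 3 control sums, it was at least 221-fold higher (adjusted p = 1.03e-07). *CG30428* had 115, 129 and 128 CPM in *Appl*- (at least 189-fold higher), *CG32581* 64.5, 48.7 and 66.6 CPM (at least 87.2-fold), *Apl* 18.9, 15.3 and 12.3 CPM (at least 23.9-fold) and *CG34251* 11.7, 8.85 and 12.3 CPM (at least 15.9-fold), each with 0 in control. *5-HT1B* and *CG30428* overlap annotated neighbours, *CG43351* and *CG9380*. In cholinergic neurons of the same libraries the adjusted p of *5-HT1B*, *CG30428*, *CG32581*, *Apl* and *CG34251* was at most 6.58e-05, and in glutamatergic neurons, where *CG34251* was not tested, at most 0.000775, higher in *Appl*- in each.

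Rises from a low level followed. *ptc*, the Hedgehog receptor, had 39.1, 35.0 and 34.2 CPM in *Appl*-, against 2.12, 0.834 and 0 CPM in control (log2 4.99 ± 0.42, adjusted p = 1.55e-05, and 6.35 without control replicate 1). *Scr*, a Hox gene, had 43.6, 48.3 and 39.4 CPM, against 5.30, 0 and 14.9 CPM (2.69 ± 0.46, adjusted p = 0.00573, and 3.79 without control replicate 3). With DESeq2 in place of edgeR the adjusted p of *Scr* was 0.325. *CG12768* had 59.9, 38.2 and 43.0 CPM, against 6.36, 7.51 and 5.43 CPM (2.89 ± 0.27). *CG15547* (22.8, 26.2 and 19.3 CPM, against 4.24, 1.67 and 1.36), *CG9766* (9.77, 10.5 and 14.9, against 2.12, 2.50 and 0.679) and *CG12096* (55 UMIs over the *Appl*- sums, against 3 over the control sums; ratio 16.2, 95% counting interval 5.26 to 81.0) were also called, with no overlap between genotypes. *Mcm5*, a subunit of the replicative helicase, had 8.47, 16.5 and 7.01 CPM, against 2.12, 0 and 0.679 CPM (3.34 ± 0.63, adjusted p = 0.0113), with 4.71 without control replicate 1, and was not called without control replicate 3 (adjusted p = 0.0623) or *Appl*- replicate 2 (0.118).

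Several of the largest falls were of secreted proteins made by other tissues, and they were uneven over the control libraries. Those of yolk proteins, *Yp1*, *Yp2* and *Yp3*, made by the female fat body and ovary, had at most 6.51 CPM in any *Appl*- library, against 1101, 15.8 and 40.7 CPM for *Yp1*, 718, 12.5 and 21.7 CPM for *Yp2* and 2049, 30.0 and 56.4 CPM for *Yp3* in control replicates 1, 2 and 3 (log2 -6.75, -7.91 and -8.09, adjusted p = 0.0273, 0.0275 and 0.0167). Without control replicate 1 the log2 differences of *Yp1*, *Yp2* and *Yp3* were -2.97, -4.0 and -4.04, and all 3 were called. *Obp99b*, an odorant-binding protein, had 0 in all *Appl*- libraries and 75.7, 8.34 and 7.47 CPM in control (at least 61.9-fold lower, adjusted p = 0.0275, and at least 13.5-fold lower without control replicate 1). *CG4716* had 0, 1.61 and 0.877 CPM in *Appl*-, against 210, 8.34 and 9.51 CPM in control (log2 -6.24, and -3.08 without control replicate 1). The calls of these 5 genes were lost when any 1 of the 3 *Appl*- libraries was left out (adjusted p from 0.061 to 0.184). The sum of fat body markers given above was also highest in control replicate 1 (4115 CPM). *Yp3*, *Yp1* and *Yp2* are its leading members, so their likeness to that sum is built in and is no separate observation. The part of free RNA in these 5 genes was not tested. *CG4250*, with 0.651, 2.01 and 0 CPM in *Appl*- against 22.2, 8.34 and 7.47 CPM in control, had 34.8% of its UMIs in 1 cell and lost its call without control replicate 1 (adjusted p = 0.0635) or *Appl*- replicate 1 (0.0569). *TotA*, a Turandot stress peptide, had 2.61, 0 and 0.877 CPM, against 19.6, 11.7 and 10.2 CPM (-3.71, adjusted p = 0.00573, and from -5.28 without *Appl*- replicate 1 to -2.85 without *Appl*- replicate 2).

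Other falls were of genes with few or no UMIs in *Appl*-. *CG6912* had 2 UMIs over the *Appl*- sums, against 411 over the control sums (1.30, 0 and 0 CPM against 96.9, 98.4 and 74.7 CPM; ratio 0.00430, counting interval 0.000519 to 0.0156), and overlaps an antisense RNA that was also called. *gt*, a bZIP factor of the embryonic gap gene class, had 0, 1.21 and 0 CPM in *Appl*-, against 23.3, 27.5 and 21.1 CPM in control (ratio 0.0245, counting interval 0.00498 to 0.0737; adjusted p = 6.97e-05). *CG9377* had 2 UMIs over the *Appl*- sums, against 84 over the control sums (28.1, 9.17 and 13.6 CPM in control; ratio 0.0210), and *lncRNA:CR45284* 2, against 71 (8.47, 25 and 17.0 CPM in control; ratio 0.0249). The control libraries of *CG6912* and *gt* were close to each other, while those of *CG9377* and *lncRNA:CR45284* were spread. *Arc1*, which encodes a capsid-forming Gag-like protein, had 3.91, 0.403 and 0.877 CPM in *Appl*-, against 145, 46.7 and 25.1 CPM in control (-5.47 ± 0.79, adjusted p = 0.00159), and was called in each of the fits that left out 1 library. Its control values were uneven, and the difference was -4.39 without control replicate 1 and -6.85 without *Appl*- replicate 1. The other 2 activity-regulated genes tested, *Hr38* (-0.03) and *sr* (0.84), were not called.

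**Figure D5:**
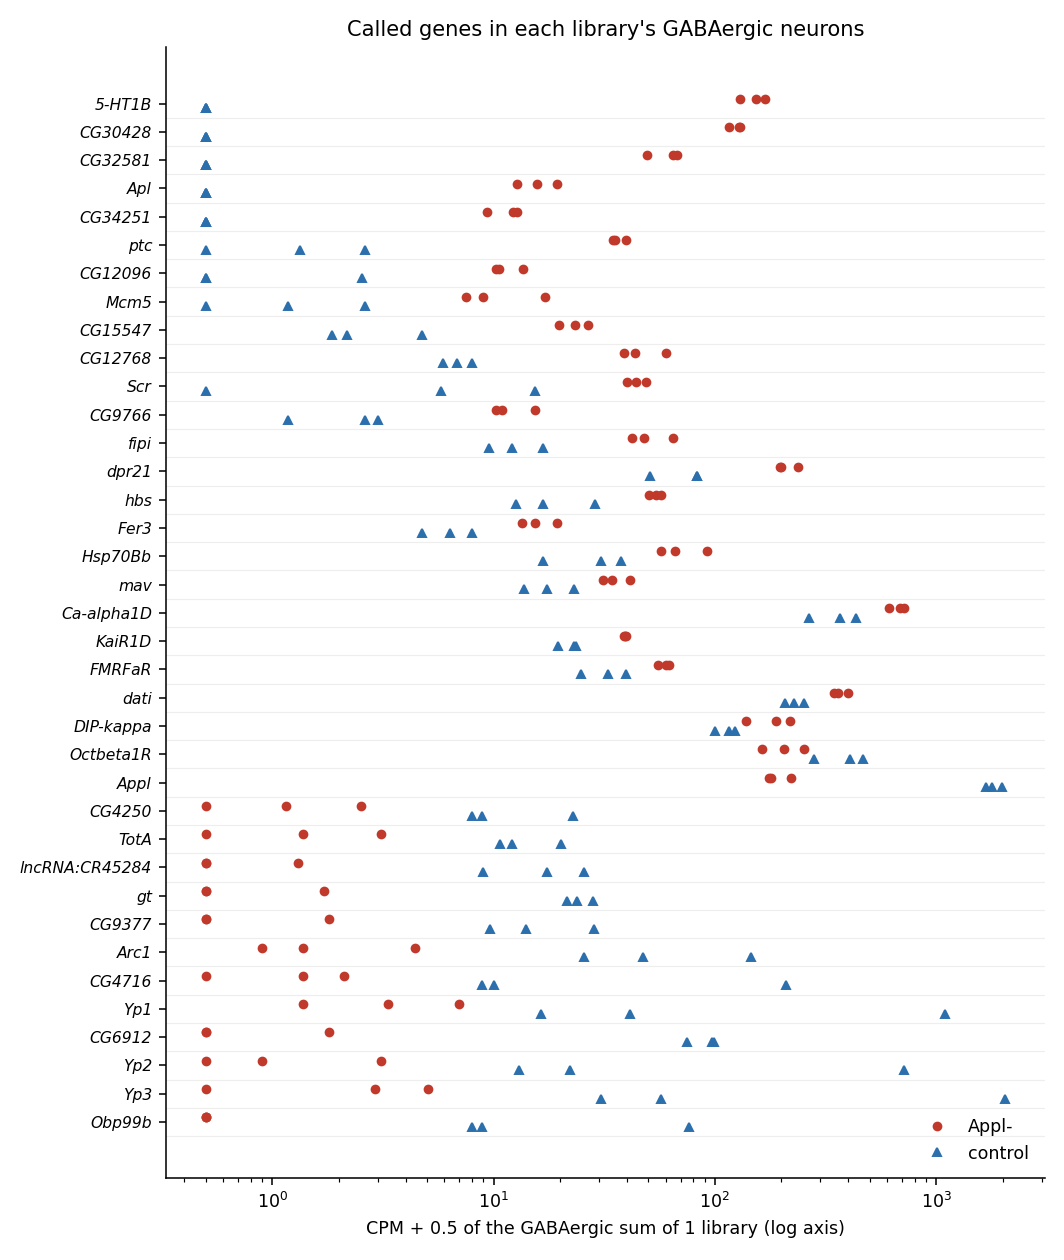
CPM + 0.5 of each called and named gene in the GABAergic sum of each library (log axis; red circles, 3 *Appl*- libraries; blue triangles, 3 control libraries); a point at the left edge is a count of 0. The genotypes do not overlap for any gene drawn, the 5 uppermost genes are at 0 in all control libraries, and the *Yp1*, *Yp2* and *Yp3* control points spread from 12.5 to 2049 CPM.

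Genes for cell contacts, channels and receptors followed with smaller differences. Of 91 adhesion and recognition genes tested, 4 were higher in *Appl*- and 0 lower, beside 2.49% of all genes called in either direction, with a list median of 0.04 on the log2 scale. *dpr21*, an immunoglobulin-domain cell surface protein of the Dpr family, had 237, 199 and 196 CPM in *Appl*-, against 50.3, 82.6 and 82.9 CPM in control (1.60 ± 0.19, adjusted p = 0.00025). *fipi* had 41.7, 64.0 and 47.3 CPM, against 9.0, 11.7 and 16.3 CPM (2.12 ± 0.26, adjusted p = 0.00041). *hbs*, a nephrin-type protein, had 50.1, 56.3 and 53.5 CPM, against 12.2, 28.4 and 16.3 CPM (1.58 ± 0.26, adjusted p = 0.00381). These 3 kept their call in every fit that left out 1 library. *DIP-kappa*, of the Dpr-interacting family, had 218, 138 and 188 CPM, against 122, 100.1 and 115 CPM (0.70 ± 0.17, adjusted p = 0.0492), and passed only when all libraries, or all but control replicate 1 or *Appl*- replicate 2, were used.

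Of 16 sodium and calcium channel genes 1 was called, beside 2.49% of all genes. *Ca-alpha1D*, an L-type calcium channel subunit, had 613, 685 and 715 CPM in *Appl*-, against 266, 433 and 369 CPM in control (0.95 ± 0.18, adjusted p = 0.00908), with an adjusted p of 0.0595 without *Appl*- replicate 2 and 0.0579 without *Appl*- replicate 3. None of 15 potassium channel, 33 vesicle release or 11 acetylcholine receptor genes was called, and DESeq2 called none either. Of them 2, 1 and 0 had an unadjusted p under 0.05, beside 12.1% of all genes. Among 16 monoamine receptors 2 were called, beside the same 2.49%: *5-HT1B* rose and *Octbeta1R* fell. *Octbeta1R* had 164, 251 and 204 CPM in *Appl*-, against 281, 406 and 468 CPM in control (-0.85 ± 0.20, adjusted p = 0.0433). The call was held only with all 6 libraries or without control replicate 1; without any other library its adjusted p lay between 0.0504 and 0.198. *KaiR1D*, a kainate-type glutamate receptor, had 38.4, 39.0 and 38.6 CPM, against 19.1, 22.5 and 23.1 CPM (0.89 ± 0.19, adjusted p = 0.0238), and *FMRFaR*, the FMRFamide receptor, 61.9, 54.7 and 59.6 CPM, against 39.2, 32.5 and 24.4 CPM (0.89 ± 0.20, adjusted p = 0.0305). Each of these 2 was called in 1 of the 6 fits that left out a library, *KaiR1D* without control replicate 2 and *FMRFaR* without control replicate 1 (highest adjusted p 0.107 and 0.129).

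Of 65 identity factors, 3 were higher in *Appl*- and 0 lower, beside 2.49% of all genes called in either direction, with a list median of 0.21 beside -0.01 for all genes. These were *Scr*, *dati* and *Fer3*. The zinc finger factor *dati* had 361, 398 and 345 CPM, against 206, 253 and 228 CPM (0.72 ± 0.14, adjusted p = 0.0134). It was not called without control replicate 3 (adjusted p = 0.0744), *Appl*- replicate 2 (0.0949) or *Appl*- replicate 3 (0.0515). *Fer3*, a bHLH factor, had 18.9, 12.9 and 14.9 CPM, against 4.24, 5.84 and 7.47 CPM (1.44 ± 0.33, adjusted p = 0.0348), and was called in none of the 6 fits that left out a library (0.0544 to 0.119). Of 16 genes of TGF-beta signalling, the ligand gene *mav* was called (2.49% of all genes were), with 33.9, 40.7 and 30.7 CPM against 13.2, 22.5 and 17.0 CPM (1.09 ± 0.24, adjusted p = 0.0273), and was not called without control replicate 1 (0.071), control replicate 3 (0.101) or *Appl*- replicate 2 (0.178). None of 14 neuropeptide genes was called by edgeR or DESeq2, and 2 had an unadjusted p under 0.05 (12.1% of all genes had).

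Most called genes were not those of 1 sub-cluster. Of the 155, 6 had more than 50% of their GABAergic UMIs in 1 sub-cluster. In 145 the *Appl*- and control libraries did not overlap in the cells outside the sub-cluster that held most. The genes were called on these same libraries, so that count is a description, and the share of all genes by that measure was not counted. *Mcm5* and *CG14687* lay almost wholly in the *Poxn* sub-cluster 13 (98.5% and 96.2% of UMIs), which had 28 *Appl*- and 13 control cells. Inside it *CG14687* was at 6606 CPM in *Appl*- and 4891 CPM in control, and outside it at 5.82 CPM in *Appl*- and 5.99 CPM in control. *vg* had 85.1% of its UMIs in sub-cluster 3, with 953 CPM in *Appl*- and 757 CPM in control, and *Fer3* 70.2% in sub-cluster 2. *Octbeta1R* was at 2137 CPM in *Appl*- and 2746 CPM in control inside sub-cluster 5, and at 139 and 240 CPM outside it. *Scr* was at 97.1 and 49.5 CPM inside sub-cluster 7 and at 35.2 and 0.506 CPM outside it.

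In the 4 sub-clusters with at least 20 cells in every library (0, 1, 4 and 6), the *Appl*- values of *5-HT1B*, *CG30428* and *Ca-alpha1D* lay above all control values in 4 of 4, and those of *Appl* below in 4 of 4. These genes were called on the same cells and libraries, so this is a description and no separate test. *5-HT1B* and *CG30428* had no UMI in any control GABAergic cell, so no control value could overlap. The share of all genes that separate so was not counted. *5-HT1B* averaged from 75.1 to 474 CPM in *Appl*- over these sub-clusters and 0 in control, and *Ca-alpha1D* from 523 to 819 CPM in *Appl*- and from 262 to 402 CPM in control. *dpr21* was separate in 2 of 4, with averages of 169 to 253 CPM in *Appl*- and of 50.2 to 83.0 CPM in control.

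Whether GABAergic neurons differed from the other classes in their response was tested as the difference of the 2 genotype effects (edgeR, interaction of genotype and class with a term for each library, 6971 genes). Against glutamatergic neurons 2 genes passed (0.0287%) and against cholinergic neurons 13 (0.186%), of which 9 had the higher effect in GABAergic neurons (0.129%) and 4 the lower (0.0574%). *hzg* had 191, 120 and 137 CPM in GABAergic cells of *Appl*-, against 305, 299 and 304 CPM in control (log2 -0.99), and 202 against 725 CPM in cholinergic cells (-1.84). The difference of 0.85 ± 0.09 (adjusted p = 0.000138) was the only one of the 15 called in each fit that left out 1 library. *CG17691* rose in GABAergic neurons to 61.9, 83.3 and 69.3 CPM in *Appl*-, against 29.7, 35.9 and 26.5 CPM in control (1.27), and to 62.5 CPM in cholinergic neurons, against 10.8 CPM (2.54), a difference of -1.28 ± 0.22 (adjusted p = 0.0158). Of the 6 fits that left out a library it was called only in the one without control replicate 3.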

How the data were processed

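Single-cell suspensions of adult brains were sequenced as 6 libraries (10x 3′ chemistry). As deposited by the authors, each library is a matrix of UMI counts per barcode from Cell Ranger 6.0, with no normalization, over 22064 features, of which 16493 are genes; the other features, which are transposable elements, took 0.602% to 0.637% of UMIs in *Appl*- and 0.445% to 0.725% in control and were left out. The genome build and the use of strand in counting are not given in the sources used here. Ensembl annotation, matched for 16447 gene IDs, was used only for names and overlapping genes. The members and the gene lists were chosen with earlier results of these data known, so list counts are a description.

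UMIs were summed per library and class and tested with edgeR 4.0.16 (TMM factors, filterByExpr, quasi-likelihood F test, Benjamini-Hochberg adjustment over all genes tested; R 4.3.3, limma 3.58.1). The genotype comparison was fitted on the 6 GABAergic sums, and the class and interaction comparisons on all 18 sums with a term for each library. A class difference was called at 2-fold or more, and a genotype difference at 0.32 or more on the log2 scale, each with an adjusted p under 0.05. DESeq2 1.42.0 was an alternative. Shares and depths were compared by exact permutation over libraries. Log2 differences are those of the fit, and a gene at 0 in one genotype is given as a bound from a limit of 3 UMIs over its sums. Intervals and such limits cover counting error only. Genes were named by a rule: the 12 largest called differences each way between genotypes among genes other than antisense RNAs whose libraries did not overlap and whose higher genotype averaged 10 CPM or more, the 10 each way between classes at 20 CPM or more, called members of the lists (the 6 largest each way per list between classes), genes of GABA handling and reception, up to 12 calls per interaction by p, and the leading factors and neuropeptides of sub-clusters. The remaining interaction call (*Pdf* against cholinergic neurons), *Hr38*, *sr*, *Hsp68*, *lncRNA:CR44922*, *Syn1*, *uex* and *gce* were named after their values were seen. The values of 1 leading factor of a sub-cluster are not reported here.

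The same-numbered libraries of both genotypes deviated together over all kept cells (correlation of deviations 0.25, 0.21 and 0.33). Over GABAergic sums these correlations were 0.31, 0.13 and 0.05, and *Appl*- replicate 3 with control replicate 2, of unlike number, reached 0.15. The fit with the replicate number as a block is therefore given beside the genotype counts, and the labels do not say what a number shares. No libraries were duplicates. No doublet caller was run, and an alternative left out the 5% of cells with the most UMIs. Cells were clustered with scanpy 1.11.5 and leidenalg 0.10.2 (2000 variable genes, 30 principal components, 20 neighbours, resolution 1). On simulated counts the genotype fit recovered 12%, 68%, 98% and 96% of genes changed 1.5-, 2-, 3- and 4-fold, and 2.84% of its calls were unchanged genes. These counts were drawn with the same spread between libraries for every gene and with no library set apart. The rates therefore hold for that setting, and the real libraries were less even. Alternatives changed the *Gad1* limit, the mitochondrial and gene limits, the filter, the normalization, the depth and the libraries used; one without any *VAChT* UMI was chosen after seeing the data.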

Additional observations from a re-analysis of the deposited data

Results flagged for a closer look

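In 15 cases the difference between the genotype effect in GABAergic neurons and that in another class passed its own test (edgeR interaction, adjusted p under 0.05), and each is given as the difference of log2 effects, GABAergic minus the other class.

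Against glutamatergic neurons, *CG4587* differed by 0.50 (adjusted p = 0.0165). It had 1126, 1321 and 1347 CPM in GABAergic cells of *Appl*-, against 951, 1102 and 1102 CPM in control, and 1042 against 1215 CPM in glutamatergic cells, and it was not called without control replicate 2 or any of the *Appl*- libraries (highest adjusted p 0.126). *Pdf*, which encodes the clock neuropeptide, differed by -9.42 from glutamatergic (adjusted p = 0.0278) and by -6.88 from cholinergic neurons (adjusted p = 0.0298). Of its 3755 UMIs in GABAergic cells of control replicate 1, 3752 lay in 1 cell, and the other control libraries held none. *Pdf* was not called when any of the *Appl*- libraries was left out (highest adjusted p 0.448 and 0.519), and had no result without control replicate 1. DESeq2 did not call it in either comparison (adjusted p = 0.9999 against glutamatergic and 0.641 against cholinergic neurons).

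Against cholinergic neurons, *hzg* differed by 0.85 (adjusted p = 0.000138) and was called in each fit that left out 1 library. *CG14687* differed by 2.28 (adjusted p = 0.0158), with 230, 274 and 126 CPM in GABAergic cells of *Appl*-, against 94.8, 38.4 and 42.1 CPM in control, and 5.02 against 6.41 CPM in cholinergic cells; the cells of sub-cluster 13 held 96.2% of its UMIs, and it was not called without control replicate 1, *Appl*- replicate 2 or *Appl*- replicate 3 (highest adjusted p 0.18). *CG15537* differed by -2.46 (adjusted p = 0.0293), with 86.0, 145 and 41.2 CPM in *Appl*-, against 488, 409 and 251 CPM in control, and 103 against 73.0 CPM in cholinergic cells. Sub-cluster 7 held 72.9% of its UMIs and 1 cell 18%, and it was not called without control replicate 1 or 2 or *Appl*- replicate 1 or 3 (highest adjusted p 0.132).

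*FMRFaR* differed by 1.08 (adjusted p = 0.0100), with 49.2 against 54.9 CPM in cholinergic cells, and was not called without control replicate 1, *Appl*- replicate 2 or *Appl*- replicate 3 (highest adjusted p 0.105). *CG9689* differed by 4.02 (adjusted p = 0.0100), with at most 5.21 CPM in GABAergic cells of *Appl*- and 13.8, 4.17 and 2.04 CPM in those of control. In cholinergic cells its mean was 2.69 CPM in *Appl*- and 89.9 CPM in control. The cholinergic control values were uneven, at 217, 44.2 and 8.94 CPM in replicates 1, 2 and 3. *CG9689* was not called without control replicate 1, *Appl*- replicate 1 or *Appl*- replicate 2 (highest adjusted p 0.211). *CG17691* differed by -1.28 (adjusted p = 0.0158) and was called only without control replicate 3 among the fits that left out 1 library.

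The other differences were small in size. *sdt* (0.47, adjusted p = 0.0158) was not called without control replicate 1 or any of the *Appl*- libraries. *Rbp6* (0.29, adjusted p = 0.0158) was not called without control replicate 1 or 2 or *Appl*- replicate 2 or 3. *IA-2* (-0.48, adjusted p = 0.0238) was not called without control replicate 1 or 3 or *Appl*- replicate 2 or 3, and *Hsp70Bc* (0.57, adjusted p = 0.0298), which has near-identical copies that counting could split, not without control replicate 2 or 3 or *Appl*- replicate 2 or 3. *CG15312* (0.71, adjusted p = 0.0298) was called only without *Appl*- replicate 1, and *cno* (0.67, adjusted p = 0.0298) in none of these fits. The highest adjusted p in these fits lay between 0.115 for *sdt* and 0.242 for *CG15312*. With cells thinned to 1000 UMIs, *CG4587*, *hzg* and *CG14687* were called, the adjusted p of the other tested genes was at least 0.223, and *Pdf* and *CG9689* were not tested.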

How the results depend on the processing

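Of the genotype counts (78 higher, 77 lower), DESeq2 gave 85 and 73, the fit with no filter on low counts 199 and 287, cells thinned to 1000 UMIs 33 and 28, and the 5% mitochondrial limit 37 and 31. Leaving out 1 library gave 49 to 115 higher and 37 to 94 lower, the fewest without *Appl*- replicate 2 and the most without control replicate 1. The replicate block gave 177 and 164, kept each of the 155 calls and changed no call of a named gene. Without any *VAChT* UMI, an alternative chosen after seeing the data, the counts were 65 and 64. Between classes, no filter gave 114 higher and 103 lower than glutamatergic and 156 and 246 than cholinergic neurons, and thinning gave 78 lower than cholinergic. Of the genotype effects that differed from glutamatergic neurons (1 higher, 1 lower), no filter gave 36 and 23, DESeq2 2 and 0, thinning 2 and 0, and leaving out 1 library 0 to 3 and 0 to 2. Of those that differed from cholinergic neurons (9 and 4), no filter gave 65 and 57, a limit of 3 UMIs of the class gene 5 and 1, thinning 3 and 0, and leaving out 1 library 1 to 11 and 0 to 5. No named gene reversed its direction. Over all alternatives, values of called genes stayed past the threshold in 503 cases and fell short in 83 between genotypes, 475 and 12 against glutamatergic neurons, 570 and 22 against cholinergic neurons, and 10 and 8, and 59 and 67, for the interactions. DESeq2 gave no adjusted p for *Yp1*, *Yp2*, *Yp3* and *CG4716*. Differences in share and depth moved by less than the spread between libraries in every alternative run, with an exact permutation p of 0.2 or more. The cause of these changes was not tested, other than that thinned sums hold fewer counts and fewer genes. With 3 libraries a genotype, changes under 2-fold were often missed in simulated counts.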

Other observations

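Of 20 heat shock genes tested in GABAergic neurons, 1 was called between *Appl*- and control, beside 2.49% of all genes. The list median was 0.27 on the log2 scale and all 20 values were above 0, as were 48.3% of those of all genes tested; no test was made of the group. *Hsp70Bb*, an inducible chaperone gene, had 91.8, 56.7 and 65.7 CPM in *Appl*-, against 37.1, 30.0 and 16.3 CPM in control (log2 1.36, adjusted p = 0.0143 by edgeR, 0.062 without *Appl*- replicate 1), and counting could split its reads with near-identical copies. *Hsp68*, a related chaperone gene, had 1034, 732 and 927 CPM, against 758, 334 and 314 CPM, with a control replicate 1 above the lowest *Appl*- library (log2 0.96, adjusted p = 0.118 by edgeR), and without control replicate 1 the difference was 1.51 (adjusted p = 3.33e-05). Brains were dissociated with trypsin, and the part of handling in these values was not tested.

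Within sub-clusters 0, 1, 4 and 6, which had at least 20 cells in every library, some genes outside those described above also separated the genotypes in 4 of 4. They had been called between genotypes on the same cells and libraries and were named after their values were seen, so this is a description. How many of all genes separate so was not counted. *lncRNA:CR44922* averaged 148 to 264 CPM in *Appl*- over these sub-clusters, against 34.5 to 65.2 CPM in control. *Syn1*, a syntrophin gene, averaged 103 to 134 CPM in *Appl*-, against 280 to 507 CPM in control, and *uex*, a magnesium transporter gene, 260 to 501 CPM, against 915 to 1054 CPM. *gce*, a juvenile hormone receptor gene, averaged 173 to 325 CPM in *Appl*-, against 368 to 741 CPM in control, and was below all control values in 3 of 4.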
